A study of Mus musculus with 9 samples.

Results

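Lca5l, Sh3bgr, B3galt5, Igsf5 and Pcp4 are neighbours on mouse chromosome 16, and their transcripts were measured in αTC1 cells with and without EPZ011989. The 5 genes were taken by symbol from a table of 33212 gene rows. They were selected on their measured counts, since their levels with EPZ011989 were already known to lie above those in DMSO, and that difference is described below without a test. αTC1 is a glucagon-producing line derived from mouse pancreatic alpha cells, and all 9 libraries come from this 1 line. Cells were kept for 7 days with 4 µM EPZ011989 (n = 4) or for 7 days with the solvent DMSO (n = 5), and poly-A RNA was sequenced. The labels call the libraries biological replicates without saying whether they were separate cultures, so any p-value measures the spread between these libraries.

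EPZ011989 inhibits EZH2, the methyltransferase of Polycomb repressive complex PRC2. PRC2 places methyl groups on lysine 27 of histone H3, a mark of silent genes that can cover several neighbouring genes in 1 domain. Histone marks were not measured here.

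The members differ in function. Pcp4 (also called PEP-19) is a small protein that binds calmodulin through an IQ motif, and it is best known from Purkinje cells and other neurons. B3galt5 is a galactosyltransferase of the Golgi that builds type 1 sugar chains, the precursors of Lewis antigens, in epithelia. Igsf5 (JAM4) is an adhesion molecule of tight junctions, Sh3bgr is a small protein of heart and skeletal muscle, and Lca5l is a relative of the ciliary protein lebercilin.

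The genes span 367.4 kb of chromosome 16 (96158407 to 96525793, GRCm38, GENCODE M21). Lca5l (96158407 to 96192271) is on the minus strand. Sh3bgr (96200450 to 96228935), B3galt5 (96235801 to 96319859), Igsf5 (96361668 to 96422121) and Pcp4 (96467606 to 96525793) follow on the plus strand. Lca5l and Sh3bgr are thus divergent, with 8178 bp between the gene bodies, and 6865 bp separate Sh3bgr from B3galt5. The gaps from B3galt5 to Igsf5 and from Igsf5 to Pcp4 are wider, at 41808 and 45484 bp. The second of these holds Itgb2l, an integrin beta 2-like gene that is not a member.

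Exon overlap matters for how reads are assigned. The Igsf5 model counted here (ENSMUSG00000000159) shares no exon base with Pcp4 (ENSMUSG00000090223). A longer model, ENSMUSG00000117081, also named Igsf5 and on the same strand, shares 788 bp with the counted Igsf5 model and 243 bp with Pcp4, which is 31.2% and 23.7% of their exon lengths. It was not analysed here. Reads from such a joined transcript could be counted under either gene and would not be separated by strand. No exon of Lca5l, Sh3bgr or B3galt5 overlapped another annotated gene.

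The sequence before the start sites is shown because CpG-rich promoters are the usual sites of PRC2 binding and these genes differ in it. RefSeq promoter entries (GRCm38.p6) matched 3 of the 5 members, Lca5l, B3galt5 and Pcp4, with 1, 3 and 1 start sites. Each sequence below ends next to the start of the gene, is written 5′ to 3′ on the gene's own strand and omits bases that lie in an annotated exon. Capitals mark every CG, a motif that reads the same on both strands.
Lca5l, chr16:96192272-96192507, minus strand: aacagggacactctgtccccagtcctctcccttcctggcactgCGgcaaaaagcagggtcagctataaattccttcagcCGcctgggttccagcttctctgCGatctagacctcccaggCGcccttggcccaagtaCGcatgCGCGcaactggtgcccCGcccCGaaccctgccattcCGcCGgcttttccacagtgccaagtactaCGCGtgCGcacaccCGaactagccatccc
B3galt5, first start site, chr16:96235551-96235800, plus strand: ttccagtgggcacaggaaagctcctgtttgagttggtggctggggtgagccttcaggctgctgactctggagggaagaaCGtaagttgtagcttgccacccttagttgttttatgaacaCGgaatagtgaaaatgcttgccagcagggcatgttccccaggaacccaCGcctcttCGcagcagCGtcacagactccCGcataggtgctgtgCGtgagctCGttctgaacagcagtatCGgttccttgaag
Pcp4, chr16:96467356-96467605, plus strand: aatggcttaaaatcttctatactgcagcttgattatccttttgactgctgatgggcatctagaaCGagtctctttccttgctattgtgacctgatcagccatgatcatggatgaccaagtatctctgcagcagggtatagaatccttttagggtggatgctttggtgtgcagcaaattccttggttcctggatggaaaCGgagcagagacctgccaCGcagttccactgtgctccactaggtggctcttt

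The 250 bases before the Pcp4 start held 3 CG, and 37.8% of 32851 RefSeq promoter windows of the same length held as few or fewer. The Lca5l window held 17 CG over its full 250 bases (15 in the 236 bases printed), a number that 23.5% of all windows reached. At B3galt5 the windows before the 3 start sites held 9, 6 and 20 CG, in order along the chromosome. The median over all windows was 6, and 92.1% held at least 1. The member with the highest level in EPZ011989 cells was the one with the fewest CG before its start among the 3 matched. These counts describe the letters only.

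Levels are given as CPM, the count relative to the library total after TMM scaling. Totals were 60274140 to 74651782 counts per library. Many fragments appear to add about 4 counts each, so a level of a few counts stands for 1 or 2 fragments.

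Pcp4 was close to the limit of detection in DMSO and became a clearly detected transcript with EPZ011989. DMSO libraries 1 to 5 held 0.108, 0.0589, 0.318, 0.186 and 0.129 CPM, from 4 to 23 counts each, or about 1 to 6 fragments. EPZ011989 libraries 1 to 4 held 21.95, 18.8, 19.8 and 26.95 CPM, from 1337 to 1920 counts. All EPZ011989 libraries lay far above all DMSO libraries. The fitted log2 fold change was 7.08 ± 0.30 (SE, edgeR). Without 1 library at a time it ran from 6.87 to 7.49.

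B3galt5 was next. Its DMSO libraries 1 to 5 held 0.690, 0.0884, 0.429, 0 and 0.257 CPM, and DMSO replicate 4 had no count. EPZ011989 libraries 1 to 4 held 5.96, 5.29, 5.37 and 4.63 CPM. The groups were well apart. Relative to the mean the EPZ011989 libraries were the more even, with a coefficient of variation of 10.3% against 94.3% in DMSO. The DMSO libraries held only 0 to 51 counts, against 330 to 450 with EPZ011989, so these percentages are not on an equal footing. The SD itself was 0.276 CPM in DMSO and 0.545 CPM with EPZ011989. The log2 fold change was 4.14 ± 0.61 (SE).

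Sh3bgr was detected in every library at a low level. It was at 0.217, 0.324, 0.263, 0.304 and 0.386 CPM in DMSO libraries 1 to 5. It was at 0.464, 0.788, 1.29 and 1.03 CPM in EPZ011989 libraries 1 to 4. The groups did not overlap, but EPZ011989 replicate 1 lay just above DMSO replicate 5. The log2 fold change was 1.57 ± 0.37 (SE).

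Lca5l had the smallest log2 fold change of the 4 members for which a fold can be given. Its DMSO libraries 1 to 5 were at 0.663, 0.486, 0.485, 0.490 and 0.657 CPM. EPZ011989 libraries 1 to 4 were at 1.06, 2.38, 1.13 and 1.03 CPM, so replicate 2 stood apart from the other 3. The log2 fold change was 1.33 ± 0.32 (SE) with all libraries and 0.94 without EPZ011989 replicate 2. The groups were still apart without it.

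No DMSO library held a count of Igsf5 (0 in each of the 5). EPZ011989 libraries 1 to 4 held 19, 21, 33 and 15 counts, or 0.252, 0.296, 0.435 and 0.211 CPM, which is about 4 to 8 fragments per library. With the floor for each DMSO library set at 12 counts (3 fragments), the mean with EPZ011989 was at least 1.70-fold higher. Floors cover counting error only. Igsf5 passed the filter on low counts through the EPZ011989 libraries alone.

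**Figure D1:**
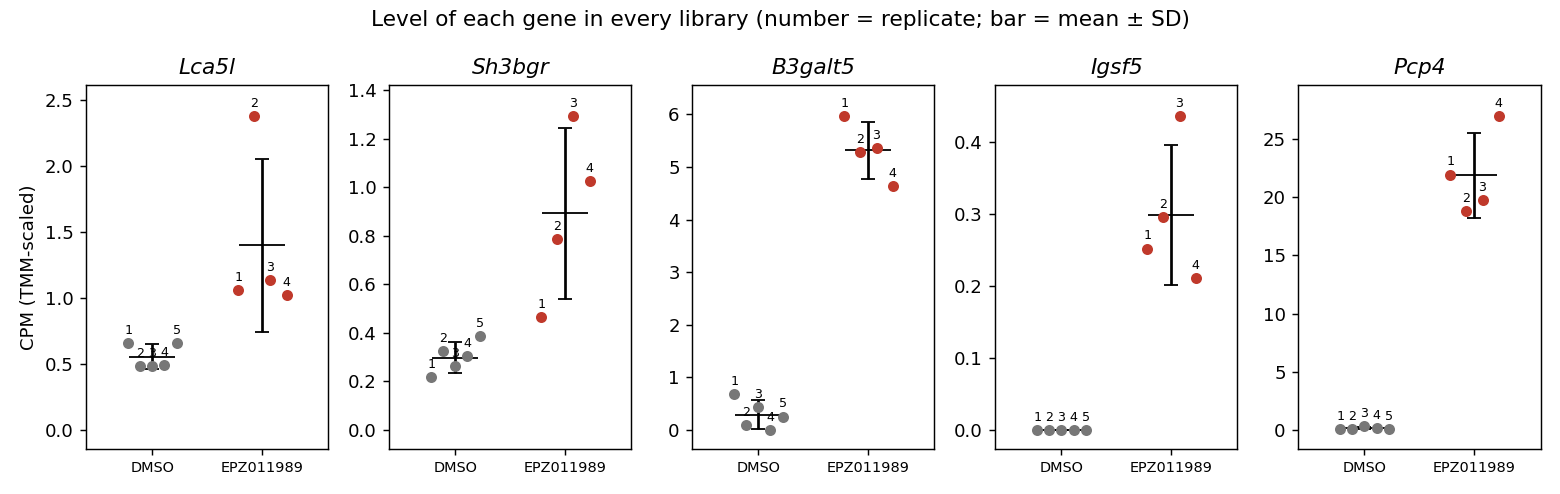
CPM (linear axis, a separate scale for each gene) of the 5 genes in each DMSO (grey, n = 5) and EPZ011989 (red, n = 4) library, with the replicate number at each point and bars for mean ± SD. Every EPZ011989 library lies above every DMSO library for each gene, with Pcp4 between 18.8 and 26.95 CPM and Lca5l replicate 2 apart from the other EPZ011989 libraries at 2.38 CPM.

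All 5 members passed the filter and the groups overlapped for none of them. Among all 14754 genes tested, 16.1% had every EPZ011989 library above every DMSO library, and among the 3041 with a DMSO mean under 1 CPM the share was 31.3%. The members were chosen for this contrast, so the count says nothing beyond the choice. Their median log2 fold change was 1.57 with Igsf5 set at its bound (4.14 with its fitted value), against 0.03 over all genes tested and 0.74 over genes under 1 CPM in DMSO.

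The EPZ011989 libraries did not rank alike across the 5 genes. The highest library was replicate 2 for Lca5l, replicate 3 for Sh3bgr and Igsf5, replicate 1 for B3galt5 and replicate 4 for Pcp4. The highest library exceeded the lowest 1.43-fold for Pcp4 and 1.29-fold for B3galt5, but 2.32-fold for Lca5l and 2.79-fold for Sh3bgr. The last 2 rest on fewer counts, 73 to 169 and 35 to 98 per library.

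Per kilobase of exon, Pcp4 stood far above its neighbours once EPZ011989 was present. With EPZ011989 it was at 21.3 ± 3.5 CPM per kb (SD, n = 4), B3galt5 at 0.863 ± 0.089, Sh3bgr at 0.568 ± 0.224, Lca5l at 0.213 ± 0.099 and Igsf5 at 0.118 ± 0.039. The libraries of Pcp4 did not overlap with those of B3galt5, while each later pair of neighbours in this order did overlap. In DMSO the level of Sh3bgr was 0.190 ± 0.041 CPM per kb (n = 5), that of Pcp4 0.156 ± 0.097, that of Lca5l 0.0845 ± 0.0144 and that of B3galt5 0.0476 ± 0.0449. Libraries of Sh3bgr and Pcp4 overlapped in DMSO, and their order turned when the longest transcript was used as the length (0.223 for Sh3bgr and 0.2496 for Pcp4). Igsf5 was at 0. The DMSO counts of Pcp4 were under 12 in 4 of the 5 libraries, so its place in the DMSO order is uncertain.

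**Figure D2:**
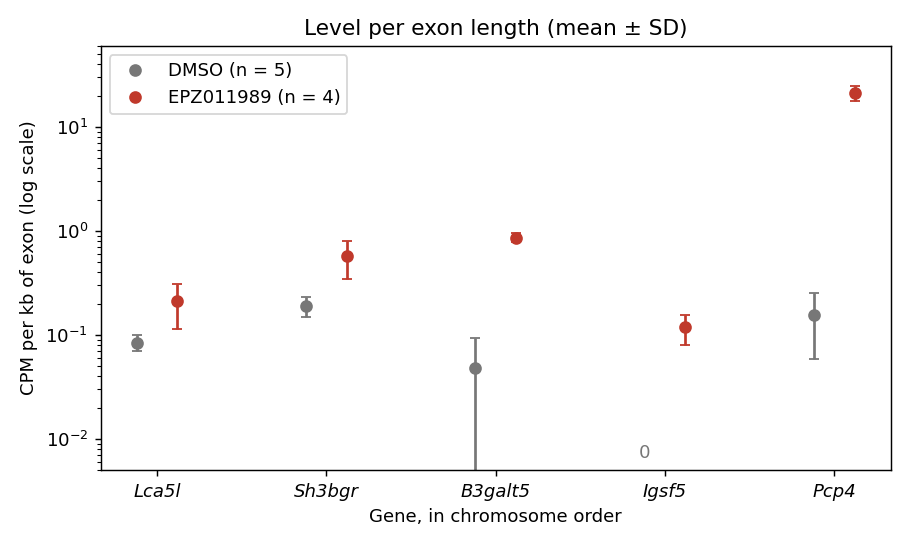
CPM per kb of exon (log axis) for the 5 genes in chromosome order, as mean ± SD over DMSO (grey) and EPZ011989 (red) libraries. The DMSO means that are above 0 lie between 0.0476 and 0.190, the lower bar of B3galt5 in DMSO runs off the axis, and Pcp4 with EPZ011989 stands alone at 21.3.

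The genes on either side were read from the same fit. The window took genes whose lower coordinate lay within 1 Mb of the span, which is the tail end for minus-strand genes. Of 18 such other genes with a row in the table, 9 passed the filter. Of these, 2 rose and 0 fell at an adjusted p under 0.05 (edgeR quasi-likelihood test, adjusted by the Benjamini-Hochberg method over all 14754 genes). Across all genes tested, 16.2% rose and 7.96% fell. The median log2 fold change of the 9 was -0.06. The ends of the gene set were themselves drawn with these values known.

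On the Lca5l side the run ended at once. Wrb, which helps to insert tail-anchored proteins into the endoplasmic reticulum and lies tail to tail with Lca5l, was at 51.1 ± 3.1 CPM in DMSO (SD, n = 5) and 45.7 ± 1.8 with EPZ011989 (n = 4; log2 fold change -0.16 ± 0.07 SE, adjusted p = 0.116, edgeR). Hmgn1, a nucleosome-binding protein, was at 764 ± 25 and 769 ± 84 CPM (adjusted p = 0.957). Brwd1, a bromodomain protein, was at 84.1 ± 10.3 and 80.9 ± 23.6 CPM (adjusted p = 0.859). Psmg1, a proteasome assembly chaperone, was at 38.3 ± 2.4 and 33.0 ± 6.7 CPM (adjusted p = 0.254). Of these 4, Wrb passed as lower without DMSO replicate 5 (adjusted p = 0.0466) or EPZ011989 replicate 2 (0.0425) and with DESeq2 (0.0377). Brwd1 passed as lower without EPZ011989 replicate 2 (0.0497) and Psmg1 without EPZ011989 replicate 4 (0.0387). None of the 4 passed as higher with all libraries.

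The windows before the starts of flanking genes were counted in the same way. They held 42 CG at Brwd1, 30 at Hmgn1, 25 at Ets2 and 23 at Psmg1, all well expressed. Of genes low or at 0 in DMSO, Dscam had 21, Kcnj15 and Itgb2l had 1 each, and the 3 start sites of Erg had 3, 2 and 14. Wrb was not counted.

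Beyond these, the ETS factor Ets2 was at 131 ± 9 and 132 ± 8 CPM (adjusted p = 0.984), and the potassium channel gene Kcnj15 at 0.999 ± 0.261 and 0.894 ± 0.593 CPM (adjusted p = 0.853). Between them lies Erg, an ETS factor of endothelial and blood cells, which rose. It had 4 counts in DMSO replicate 5 and none in the other DMSO libraries, and 1.91, 2.00, 1.68 and 1.73 CPM in EPZ011989 libraries 1 to 4 (adjusted p = 4.04e-05, edgeR). Its start lies 881 kb from that of Pcp4, with expressed genes between that did not pass the test. The summed level of 5 immune and endothelial markers was 0.969 to 1.56 CPM in DMSO and 1.43 to 2.64 CPM with EPZ011989. The endothelial marker Cdh5 was below the filter, at 0 in all DMSO libraries and 0.112 to 0.356 CPM with EPZ011989, and Pecam1 was at means of 0.194 and 0.389 CPM (adjusted p = 0.217, edgeR). The pan-leukocyte marker Ptprc was at 0 in DMSO and 0.0140 CPM with EPZ011989, and the macrophage marker Cd68 at 1.07 and 0.995 CPM (adjusted p = 0.807). Of the 3 that passed the filter 1 rose, the endothelial receptor gene Kdr, from 0 in DMSO to a mean of 0.314 CPM. The part of such cells in the level of Erg was not tested.

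On the Pcp4 side no end could be placed, since the nearest gene that passed the filter, Bace2, starts 889 kb from the Pcp4 start. Inside the span and on that side, Itgb2l and Dscam were below the filter, and both are named after their values were seen. Itgb2l, between Igsf5 and Pcp4, had a count of 0 in all 9 libraries and was not detectable at this depth in either group. Dscam, a neuronal cell adhesion gene on the minus strand, has its tail end next to Pcp4, but its start lies 703 kb from that of Pcp4. Dscam had 0 counts in every DMSO library and 22, 39, 8 and 29 counts in EPZ011989 libraries 1 to 4 (0.292, 0.549, 0.106 and 0.407 CPM). Its mean was at least 1.92-fold higher against the DMSO floor. In a fit without the filter Dscam passed as higher (adjusted p = 0.00363), as it did without EPZ011989 replicate 3 (0.00494). Bace2, a protease that cleaves amyloid precursor protein, rose from 53.5 ± 2.6 to 83.0 ± 12.01 CPM, a log2 fold change of 0.64 ± 0.10 (SE; adjusted p = 7.34e-04). Gm9242, a processed pseudogene, was at 0.885 ± 0.183 and 0.587 ± 0.089 CPM (adjusted p = 0.163). Within 2 Mb of the span 18 genes were tested and 3 rose. The further one, C2cd2, named after its value was seen, rose to 30.3 ± 2.2 CPM from 21.4 ± 0.6 CPM in DMSO (adjusted p = 4.77e-04, edgeR).

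**Figure D3:**
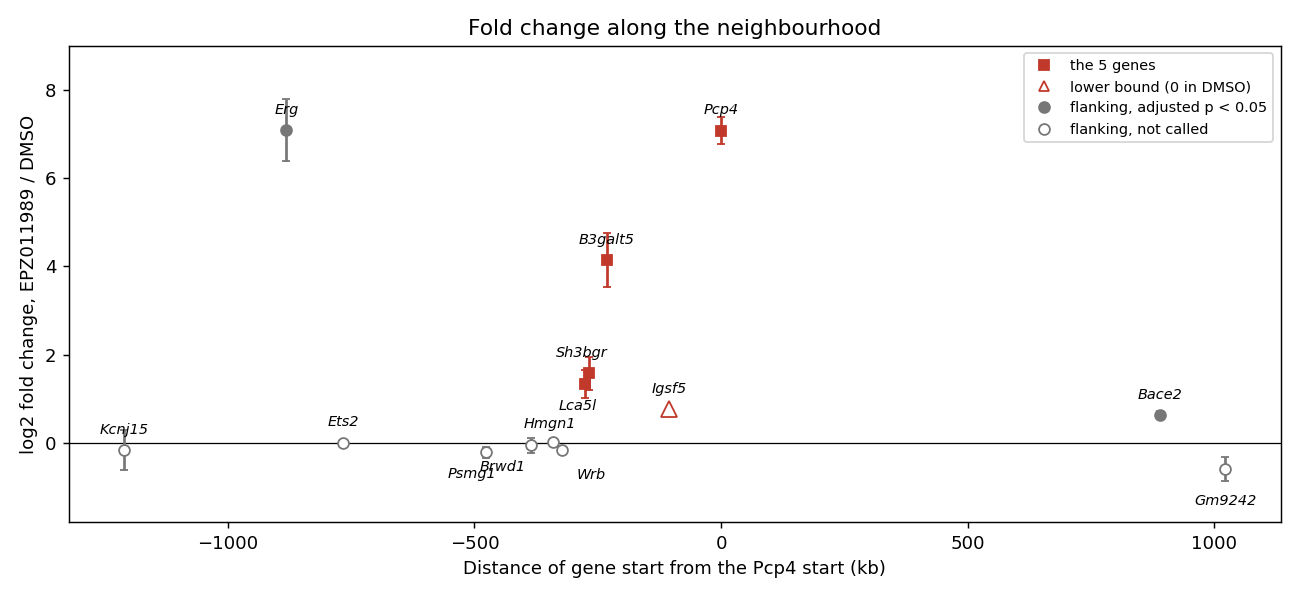
Log2 fold change (EPZ011989 over DMSO, with SE) of the 5 genes and of the 9 tested flanking genes against the distance of each start from that of Pcp4 in kb. Igsf5 is drawn at its lower bound, and Wrb, Hmgn1, Brwd1 and Psmg1 lie near 0 beside the raised genes while Erg stands high at 881 kb from Pcp4. Erg is drawn at its fitted value of 7.09 and not at a bound, though it had only 4 counts in DMSO replicate 5 and 0 in the other DMSO libraries. Its height is therefore uncertain, from 6.77 to 10.01 when each library was left out in turn.

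Several genes followed Pcp4 across the 9 libraries more closely than its neighbours did. Likeness was measured as Pearson's r of log2(CPM + 1) over the 9 libraries, among 12046 genes, either members or averaging 1 CPM or more. With the groups so far apart, r mainly reflects the difference between them, so no p is given. The closest 5 were Adora1 (r = 0.9987), an adenosine receptor, Fgfr1 (0.9982), a fibroblast growth factor receptor, Col6a2 (0.9979), a collagen VI chain, Cadm4 (0.9979), a cell adhesion molecule, and B2m (0.9976), the subunit shared by MHC class I molecules. They lie on chromosomes 1, 8, 10, 7 and 2, and none on chromosome 16. Of the neighbours, B3galt5 was at r = 0.979 (rank 242), Igsf5 at 0.934 (rank 741), Sh3bgr at 0.841 (rank 1406) and Lca5l at 0.785 (rank 1730). Members were kept whatever their level, and Igsf5, Sh3bgr and Lca5l had at most 33, 98 and 169 counts in any library. Their ranks are thus not on an equal footing with those of the other genes, and the part of low counts in them was not tested.

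Pcp4 acts on calmodulin, so genes of calmodulin signalling were read from the same fit. Calmodulin carries calcium signals to kinases, the phosphatase calcineurin, phosphodiesterases and adenylyl cyclases. Of 42 genes listed, 36 passed the filter, of which 16 rose, 1 fell and 19 did not pass the test. Their median log2 fold change was 0.48, against 0.03 over all genes tested, of which 16.2% rose and 7.96% fell. Over genes under 1 CPM in DMSO, a level at which several listed genes lie, the median was 0.74. The list was chosen with earlier results of these data known, so its counts are a description only.

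Calm2, which encodes calmodulin, was at 710 ± 51 and 742 ± 40 CPM (adjusted p = 0.603, edgeR), and Calm3, which encodes the same protein, was at 802 ± 39 and 894 ± 110 CPM (adjusted p = 0.234). Gap43, Nrgn and Pcp4l1, the genes on the list for other IQ-motif proteins of neurons, did rise. Gap43, a growth cone protein, rose from 8.19 ± 1.23 to 30.9 ± 3.3 CPM, a log2 fold change of 1.91 ± 0.12 (SE; adjusted p = 1.71e-06). Nrgn (neurogranin) rose from 0.260 ± 0.225 to 3.72 ± 1.34 CPM (adjusted p = 3.64e-04). Pcp4l1, the closest relative of Pcp4, rose from 0.714 ± 0.324 to 2.67 ± 0.27 CPM (adjusted p = 0.00159).

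Among the enzymes that calmodulin switches on, the kinase gene Camk1g rose from 0.0470 ± 0.0432 to 4.25 ± 1.15 CPM (adjusted p = 1.32e-05, edgeR). Camkk1, a kinase that activates such kinases, rose from 4.47 ± 1.13 to 9.92 ± 0.51 CPM. The phosphodiesterase gene Pde1b rose from 0.07195 ± 0.04999 to 2.07 ± 0.67 CPM and Pde1a from 2.56 ± 0.30 to 7.24 ± 2.51 CPM. Pde1c, far more abundant at 406.7 and 463.5 CPM, did not pass (adjusted p = 0.356, edgeR). Camk2a and Camk2b rose, but the kinase genes Camk2d (50.6 and 47.0 CPM, 0.345) and Camk2g (21.0 and 20.2 CPM, 0.71) did not pass. Of calcineurin genes, Ppp3cc rose, and Ppp3ca (95.0 and 107.2 CPM, 0.075) and Ppp3cb (74.8 and 64.5 CPM, 0.0737) did not pass. Some inhibitors rose as well. Camk2n1, which blocks CaMKII, went from 44.5 ± 3.6 to 78.7 ± 10.9 CPM, and Rcan2, which blocks calcineurin, from 16.5 ± 0.7 to 29.4 ± 0.8 CPM. Their relatives Camk2n2 (58.1 and 57.1 CPM, adjusted p = 0.93, edgeR), Rcan1 (48.5 and 53.8 CPM, 0.231) and Rcan3 (131.2 and 138.6 CPM, 0.435) did not pass. The 1 gene that fell was the kinase gene Camk4, named after its value was seen, from 111 ± 6 to 82.1 ± 10.7 CPM (adjusted p = 0.00377).

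**Figure D4:**
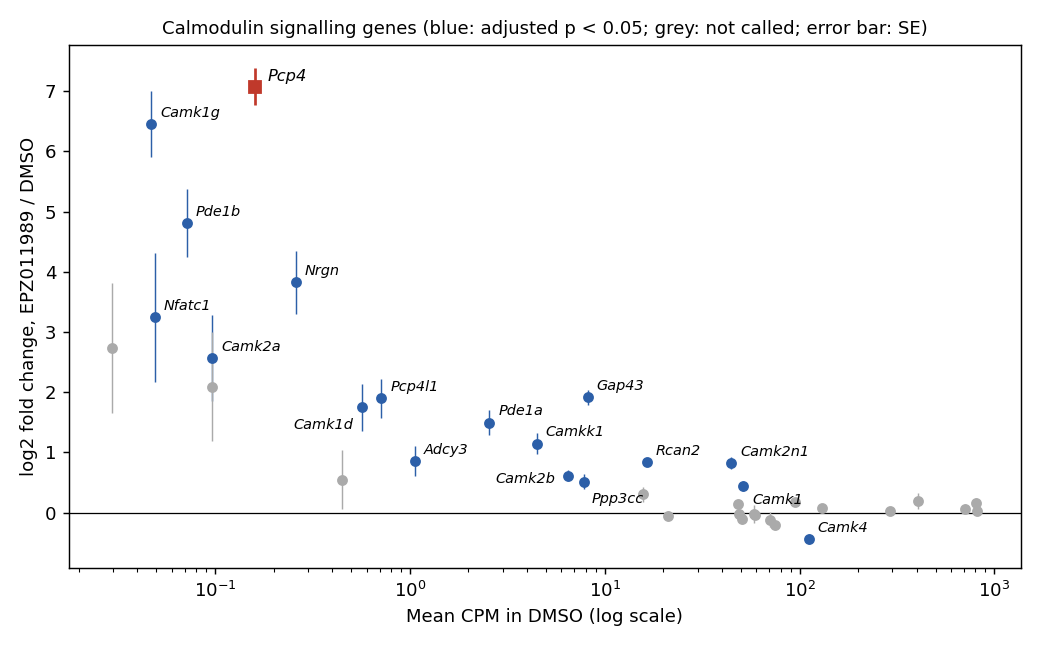
Log2 fold change (EPZ011989 over DMSO, with SE) against mean CPM in DMSO (log axis) for the 36 tested calmodulin signalling genes, with Pcp4 as a red square. Genes that passed the test (blue) lie mostly on the left, at low DMSO levels, while Calm2 and Calm3 at the far right lie near 0.

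Relatives of the members moved in part. Of 31 listed genes, which include Gap43, Nrgn and Pcp4l1 from the calmodulin list, 26 passed the filter, of which 11 rose, 2 fell and 13 did not pass the test. The median log2 fold change was 0.39, and the share of all tested genes that rose was 16.2%. This list too was chosen with earlier results of these data known.

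For Lca5l, its relative Lca5 was at 8.31 ± 1.22 and 8.28 ± 1.08 CPM (adjusted p = 0.990, edgeR). For Sh3bgr, Sh3bgrl rose from 62.9 ± 7.1 to 106.9 ± 15.5 CPM (adjusted p = 6.05e-04), and Sh3bgrl2 and Sh3bgrl3 did not pass. For B3galt5, the other galactosyltransferase genes B3galt1, B3galt4 and B3galt6 did not pass. B3galt2, named after its value was seen, fell from 6.96 ± 0.81 to 4.42 ± 1.497 CPM (adjusted p = 0.0323), with overlap between the groups. Of the related N-acetylglucosaminyltransferase genes, B3gnt5 rose from 0.139 ± 0.076 to 2.15 ± 1.01 CPM (adjusted p = 1.34e-04). B3gnt9 fell from 60.95 ± 3.64 to 46.1 ± 1.6 CPM (adjusted p = 0.00129). B3gnt3 and B3gnt7, named after their values were seen, also rose (adjusted p = 0.0385 and 0.00587, edgeR), while B3gnt2 and B3gnt4 did not pass.

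Among relatives and partners of Igsf5, the adhesion gene Igsf11 rose from 0.0229 ± 0.0313 to 1.11 ± 0.43 CPM (adjusted p = 5.38e-04, edgeR). Jam2 and Jam3, named after their values were seen, rose as well (adjusted p = 0.00404 and 0.0169, edgeR), while Cxadr and Esam did not pass. Magi1, a scaffold that binds the Igsf5 protein at junctions, rose from 4.66 ± 0.62 to 12.9 ± 1.9 CPM, a log2 fold change of 1.47 ± 0.13 (SE; adjusted p = 2.31e-05). Tjp1 (ZO-1), the general tight junction scaffold, was at 98.7 ± 15.3 and 82.9 ± 23.2 CPM (adjusted p = 0.347).

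Alpha cell identity was checked with 8 markers, of which 2 rose and 0 fell, and Gcg, which encodes glucagon, lay between 18570 and 20480 CPM in DMSO and between 15390 and 20970 CPM with EPZ011989. Because Pcp4 is a gene of Purkinje cells and other neurons, 10 neuronal markers were read beside it. Their summed level was 559 to 593 CPM in the DMSO and 498 to 584 CPM in the EPZ011989 libraries, mostly from Map2, Snap25, Syn1, Tubb3 and Itpr1, which endocrine cells also express. The Purkinje cell markers Calb1, Car8 and Pvalb were at 0 in all DMSO libraries, with means of 0.0198, 0.0457 and 0.303 CPM with EPZ011989, and Pcp2 was at 0.0963 and 0.0741 CPM. Of the 6 that passed the filter, Rbfox3 (NeuN) was the 1 that passed the test, from 0.0372 to 0.663 CPM (adjusted p = 0.0160, edgeR). Fewer or more cells with a transcript and less or more of it per cell cannot be told apart in these bulk libraries. Fibroblast markers summed to 7.25 to 9.84 CPM in DMSO and 25.3 to 38.7 CPM with EPZ011989, mainly Pdgfra. Of the 3 that passed the filter 2 rose, Pdgfra from 7.29 to 27.6 CPM (adjusted p = 6.85e-06, edgeR) and Col1a1 from 0.128 to 1.15 CPM (adjusted p = 0.00508). Col1a2 was at 1.27 and 2.01 CPM (adjusted p = 0.0551). Col3a1, Dcn and Lum were at 0 in all DMSO libraries, with means of 0.162, 0.0265 and 0.0165 CPM with EPZ011989. Acinar and duct markers summed to 9.22 to 13.5 CPM in DMSO and 6.28 to 8.52 CPM with EPZ011989, mainly Cela1, with Prss1 and Amy2a5 at 0 throughout. Of the 2 that passed the filter 1 fell, Cela1, from 10.9 to 6.39 CPM (adjusted p = 0.00212, edgeR). The part of other cell types in the levels of the 5 genes was not tested.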

How the data were processed

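Poly-A RNA-seq of 9 αTC1 libraries was analysed, grouped by the treatment in the labels. The authors deposited integer counts per gene, and a second table on a linear signal scale whose values equal the deposited counts divided by 1 factor per library (within a relative 1e-04, for 100% of matched values). HISAT2, StringTie, DESeq2 and mm10 are named per the submitters' processing notes, without roles or versions; use of strand in counting is not given in the sources used here. A count of 1 was the most frequent above 0 (3970 values), but 4 and 5 (3046 and 2732 values) outnumbered 2 and 3 (2108 and 2160). Many fragments thus seem to add about 4 counts and others fewer, fragment numbers are approximate, and the detection floor was set at 12 counts (3 fragments of about 4).

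The test was edgeR's (4.0.16, R 4.3.3) robust quasi-likelihood F test on treatment alone, two-sided, after filterByExpr and TMM scaling, with Benjamini-Hochberg adjustment over 14754 genes and calls at an adjusted p under 0.05. SEs are approximate, the absolute log2 fold change over the root of F. CPM use TMM-scaled library sizes. The fit was tested on simulated data with changes only in genes at 1 CPM or more in DMSO. That test does not cover the lower DMSO levels of the 5 genes. The 5 genes, the lists and the flanking window were chosen with earlier results of these data known. Named were all 5 genes, every flanking gene within 1 Mb that passed the filter, the 5 genes most like Pcp4, and at most 8 called genes per list by smallest p. Positions and exons come from GENCODE M21 (GRCm38, the assembly of mm10). Alternatives were scaling by upper-quartile or RLE factors or by library size alone, dropping the filter or asking for 1 CPM in 4 libraries, limma-voom, DESeq2 1.42.0, limma 3.58.1 on log2(value + 1) of the second table, the replicate number as a block, windows of 0.5 and 2 Mb, longest transcripts, and leaving out each library. Counts divided by 4 were added after seeing the data.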

Additional observations from a re-analysis of the deposited data

Results flagged for a closer look

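In 28 groups of library values (DMSO and EPZ011989 for the 5 genes and the 9 tested flanking genes), 2 held a library far from the others. Chance alone marks about 1 in 20 such groups, but that rate does not apply to a group in which all other libraries are at 0, as for Erg. Lca5l in EPZ011989 replicate 2 was at 2.38 CPM, and the nearest of the other 3 libraries was at 1.13 CPM. Erg in DMSO replicate 5 was at 0.0572 CPM, from 4 counts, a level that cannot be told from 0 at this depth, while the other DMSO libraries had none.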

How the results depend on the processing

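Under each scaling, filter and tool tried that could test them, and without each library, Pcp4, B3galt5, Sh3bgr and Lca5l stayed higher with EPZ011989. Sizes moved beyond the spread between libraries for B3galt5 with limma-voom (log2 fold change 5.07) and for Lca5l over the left-out libraries (0.94 to 1.42, the lowest without EPZ011989 replicate 2). With at least 1 CPM in 4 libraries, Sh3bgr and Igsf5 were not tested. Sh3bgr was also not tested with counts divided by 4. Per kilobase of the longest transcript, the EPZ011989 levels were 34.1 (Pcp4), 1.01 (B3galt5), 0.443 (Lca5l) and 0.161 (Igsf5) CPM, and Lca5l in DMSO was at 0.176 CPM. Over all genes, 776 were lower with upper-quartile factors, and 781 to 2377 over the left-out libraries (lowest without EPZ011989 replicate 3, highest without replicate 2). Flanking genes that rose numbered 0 within 0.5 Mb. Flanking genes that fell numbered 1 with DESeq2 and 0 to 2 over the left-out libraries. Calmodulin genes that fell numbered 2 with DESeq2 and 1 to 3 over the left-out libraries, and relatives that fell 1 with library size alone and 1 to 4 over the left-out libraries.

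The sign of flanking genes near 0 turned. Ets2 was at -0.005 with counts divided by 4, -0.0132 with DESeq2, -0.0092 with limma on the normalized table, -0.0057 with no filter, -0.0133 with RLE factors and -0.0311 with the replicate block. Hmgn1 was at -0.0073 with DESeq2 and with RLE factors and -0.0096 with limma on the normalized table. Over the left-out libraries Ets2 ran from -0.0486 to 0.0391, Hmgn1 from -0.0663 to 0.0693, Brwd1 from -0.2855 to 0.0215 and Kcnj15 from -0.5805 to 0.1069. None of these passed the test except Brwd1 without EPZ011989 replicate 2. The cause was not tested.

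Replicate numbers are shared between groups, but same-numbered libraries did not deviate together (r = 0.052, -0.25, -0.26 and 0.108). The labels do not say whether they were paired. Without libraries known to be paired for comparison, these values cannot decide it. With the replicate block, 1550 genes were higher and 471 lower, 7 relatives rose and 1 fell. At this depth, a gene under about 12 counts in a library cannot be told from 0.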
